A study of Mus musculus with 4 samples.

Results

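The 84 nuclear genes of the oxidative phosphorylation complexes that these brain nuclei contained were followed from cell class to cell class and into the RNA outside nuclei. They were chosen by symbol (Nduf with a subunit letter and number, Sdha to Sdhd, Uqcr, Cyc1, Cox4 to Cox8 and Atp5). They also had at least 20 UMIs, counted molecules, over the called nuclei of the 4 libraries. Of the 32285 genes in the matrices 86 matched by symbol and 84 passed the minimum, of which 38 belonged to complex I, 4 to complex II, 9 to complex III, 16 to complex IV and 17 to complex V. The UMI total is what chose the members, so it is given as a description. The lowest members were Cox7a1 with 64 UMIs, Cox6b2 with 88, Cox4i2 with 113 and Ndufa4l2 with 119, and the genes outside were Cox8b with 7 UMIs and Cox8c with 0.

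All 4 libraries came from brains of female 5XFAD mice, which carry transgenes for human amyloid precursor protein and presenilin with familial Alzheimer's disease mutations, at an age of 7 to 10 weeks by the labels. Engineered EVs low or high in phosphatidylethanolamine (PE-low EV and PE-high EV) were injected intravenously in a volume of 100 µL, at 6550000000 EVs in both groups. Each group had 2 libraries and each library pooled 2 mice, so single animals cannot be separated, and every library carries both the 5XFAD transgenes and an EV treatment. Wild-type or untreated brains were not analysed here.

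The complexes sit in the inner mitochondrial membrane. Complexes I and II take electrons from NADH and succinate, complex III passes them through cytochrome c to complex IV, which reduces oxygen, and complex V makes ATP from the proton gradient. A core of subunits is encoded in mitochondrial DNA, but most subunits are encoded in the nucleus, transcribed there and translated in the cytoplasm. Neurons depend heavily on this pathway, and several subunits of complex IV have paralogs that are used in particular tissues. In nuclei only the part of such an mRNA that has not been exported can be counted, along with RNA that was free in the suspension and was captured with the nucleus.

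The promoters of the members are shown because factors such as NRF1, GABPA and YY1 are known to bind upstream of many of these genes. RefSeq promoter windows on GRCm38.p6, from 250 bases before to 50 after a start, were found for 66 of the 84 members by symbol, as 71 windows. The letters GCATGCG, the centre of the NRF1 motif, stood on either strand of 15.5% of these windows, against 3.58% of all 32851 windows and 5.33% of the 17603 windows of genes with at least 20 UMIs in nuclei. The ETS letters CCGGAAG were in 23.9% of the member windows, against 8.86% of all windows and 13.9% of those of genes with at least 20 UMIs. For the YY1 letters AAGATGG the shares were 14.1%, 6.34% and 6.53%. For the letters TATAAA they were 11.3%, 13.6% and 8.50%, so the members lay below the one background and above the other. The median number of CpG was 19 in member windows, 7 in all windows and 17 in those of genes with at least 20 UMIs. The 4 members with most UMIs among those with the NRF1 letters in the 100 bases before the start are shown first, 5′ to 3′ on the gene's strand, with matched letters in capitals; a match on both strands overlaps itself and makes a run of 8. Cox7b and its paralog Cox7b2 follow, since these paralogs lay farthest apart in the comparison of nuclei with near-empty barcodes, and neither had a match in the stretch shown.
Atp5k, chr5:108434400-108434499, minus strand: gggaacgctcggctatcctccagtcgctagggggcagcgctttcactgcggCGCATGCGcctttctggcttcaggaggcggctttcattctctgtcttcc
Ndufa11, chr17:56717662-56717761, plus strand: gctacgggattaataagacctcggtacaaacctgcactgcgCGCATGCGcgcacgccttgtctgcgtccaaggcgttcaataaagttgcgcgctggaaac
Atp5g2, chr15:102671048-102671147, minus strand: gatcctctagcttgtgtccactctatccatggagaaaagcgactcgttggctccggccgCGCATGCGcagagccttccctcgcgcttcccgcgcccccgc
Ndufa8, chr2:36049339-36049438, minus strand: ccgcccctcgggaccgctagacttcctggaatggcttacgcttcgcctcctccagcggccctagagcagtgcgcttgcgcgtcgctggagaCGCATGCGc
Cox7b, chrX:106015600-106015699, plus strand: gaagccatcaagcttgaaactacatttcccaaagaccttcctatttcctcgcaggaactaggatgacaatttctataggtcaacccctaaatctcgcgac
Cox7b2, chr5:71548206-71548305, minus strand: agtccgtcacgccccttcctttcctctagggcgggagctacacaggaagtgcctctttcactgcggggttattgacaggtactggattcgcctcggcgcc

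The libraries held 29472021 to 43272337 UMIs, and 8738 to 13915 nuclei were called in each. Limits of 200 to 2500 genes and 3% mitochondrial UMIs left 1457 to 3458 nuclei per library and 10689 in all. The mitochondrial limit removed 62.3% to 76.3% of the called nuclei in 3 libraries and 89.5% in PE-high EV 1. Barcodes shared by a pair of libraries made up at most 0.446% of the smaller library. In the 7 classes with at least 10 nuclei in each library the markers fixed for the class peaked in that class for 6 of 6 astrocyte, 6 of 6 oligodendrocyte, 5 of 5 oligodendrocyte precursor, 9 of 9 microglia, 8 of 9 striatal projection neuron, 6 of 10 excitatory neuron and 5 of 9 inhibitory neuron markers. Clusters had been named from fixed markers, so these counts are a description and no independent check. The microglia marker C3 was at only 2.98 CPM in microglia-like nuclei.

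Transcripts of the members were far more abundant outside nuclei than inside. Near-empty barcodes, here the barcodes ranked 45000 to 90000 by UMIs, were taken as droplets without a nucleus. Their UMIs were taken as RNA that was free in the suspension. They were chosen by rank alone and held up to 298, 299, 247 and 212 UMIs in PE-low EV 1 and 2 and PE-high EV 1 and 2. Whether some held small nuclei or debris was not tested. Summed over the 84 members, levels in CPM (UMIs of the gene per 1000000 UMIs of the library and class) in near-empty barcodes were 31181 and 30836 in PE-low EV 1 and 2 and 39348 and 34715 in PE-high EV 1 and 2. In the kept nuclei of the same libraries they were 5246, 4701, 6007 and 5428. The near-empty level was 5.94, 6.56, 6.55 and 6.40 times the nuclear level, a mean of 6.36 ± 0.289 (SD, n = 4 libraries). Nuclei and near-empty barcodes did not overlap. All called nuclei, before the mitochondrial limit, were at 8093 ± 2065 CPM (SD, n = 4 libraries).

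Gene by gene, 83 of the 84 members were lower in nuclei than in near-empty barcodes and 1 was higher (edgeR quasi-likelihood test with library as a block, Benjamini-Hochberg over 15993 genes, adjusted p under 0.1), against 44.0% of all genes lower and 45.3% higher. The largest adjusted p among the members was 8.61e-07. The median log2 ratio of their CPM was -2.77, with quartiles of -2.89 and -2.46, and 54 of the 84 lay between 6-fold and 9-fold. In the fit, which is scaled by TMM, the median was -2.88 for the members and 0.04 for all genes tested.

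Cox4i1, the ubiquitous form of cytochrome c oxidase subunit 4 and the member of complex IV with most UMIs, stood at 311, 231, 325 and 310.0 CPM in nuclei of PE-low EV 1 and 2 and PE-high EV 1 and 2, and at 2327, 1981, 2517 and 2385 CPM in near-empty barcodes. Its fitted log2 ratio was -3.10 ± 0.06 (SE, adjusted p = 4.06e-39 by edgeR). Ndufa4, long described as a complex I subunit and since found with complex IV, had 159, 143, 211 and 177 CPM in nuclei against 1200, 1224, 1620 and 1480 CPM outside. Atp5b, the catalytic beta subunit of ATP synthase, was at 164, 135, 163 and 145 CPM against 980, 877, 951 and 921 CPM. Uqcrh, the hinge subunit of complex III, was at 81.4, 85.0, 98.1 and 94.0 CPM against 566, 605, 774 and 677 CPM. Sdha, the flavoprotein subunit of complex II, was at 88.6, 87.6, 89.9 and 87.0 CPM in nuclei and at only 210, 209, 196 and 201 CPM outside. Nuclei and near-empty barcodes did not overlap for any of these 5 genes. Ndufb2, Ndufa13, Cox4i1, Ndufb9, Atp5o and Ndufb8 overlap another protein-coding gene on the same strand in the annotation, so their counts are uncertain where reads fall in both.

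Among the members with at least 100 UMIs in nuclei the lowest ratios were nearly alike. Atp5e, the epsilon subunit of ATP synthase, had a log2 ratio of -3.04, the accessory complex I subunits Ndufb7, Ndufa2 and Ndufb11 had -3.02, -3.01 and -3.00, and Uqcr11 of complex III had -3.02. At the other end stood Cox7b2 with 1.41, Ndufs1 with -0.73, Ndufs4 with -0.73, Sdha with -1.21 and Sdhc with -1.24. Ndufs1, the large iron-sulfur subunit of complex I, was at 73.6, 75.4, 72.0 and 66.7 CPM in nuclei against 131, 116, 106 and 123 CPM outside. Ndufs4, a complex I subunit whose loss is used as a mouse model of Leigh syndrome, was at 126, 128, 102 and 125 CPM against 209, 177, 205 and 209 CPM. Complex II stood apart from the other complexes in this respect: its 4 members had a median log2 ratio of -1.60, against -2.79, -2.86, -2.68 and -2.76 for complexes I, III, IV and V. Complex II accounted for 3.15% ± 0.292 of the member UMIs in nuclei and for 1.40% ± 0.185 in near-empty barcodes (SD, n = 4 libraries), whereas complex IV fell from 29.9% ± 1.22 outside to 27.1% ± 1.21 inside.

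Cox7b2, a paralog of the complex IV subunit Cox7b described mainly in testis, was the exception. Its 166 UMIs in kept nuclei were spread over the libraries as 45, 53, 28 and 40, and near-empty barcodes held 19, 15, 16 and 17. This gave 6.50, 5.96, 9.25 and 6.22 CPM in nuclei against 2.35, 2.32, 2.57 and 3.27 CPM outside, a fitted log2 ratio of 1.27 ± 0.22 (SE, adjusted p = 8.61e-07 by edgeR). Cox7b itself was at 86.4, 85.8, 107 and 104 CPM in nuclei and at 450, 510, 673 and 562 CPM outside, on the other side of 0. Cox7b2 spans 105 kb of chromosome 5 (71442824 to 71548205, GENCODE M21 on GRCm38, minus strand) with 0.542 kb of exons, and Cox7b spans 6.75 kb of the X chromosome (106015700 to 106022450, plus strand).

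The ratio moved with intronic length. Of the protein-coding members, 77 had at least 100 UMIs in nuclei and in near-empty barcodes and at least 1 intron. Across these 77 genes the log2 ratio of nuclei to near-empty barcodes correlated with the log10 of intronic length with a Pearson r of 0.65 and a Spearman rho of 0.61, and with exonic length with r of 0.50. Across all 10335 protein-coding genes treated the same way r was 0.69 and rho 0.68 for intronic length. These correlations are across genes of the same libraries, which are not independent replicates, and are descriptions. Members with at most 5 kb of introns had a median log2 ratio of -2.87 (n = 37), those with 5 to 20 kb -2.67 (n = 30) and those above 20 kb -1.70 (n = 10). Other protein-coding genes in the same ranges of length had medians of -1.70 (n = 1468), -0.75 (n = 2906) and 0.63 (n = 5828), so the median of the members was lower in each range. Lengths were not matched within a range, and the last range is wide. The median intronic length was 5.18 kb for the members and 25.5 kb for all protein-coding genes.

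**Figure D1:**
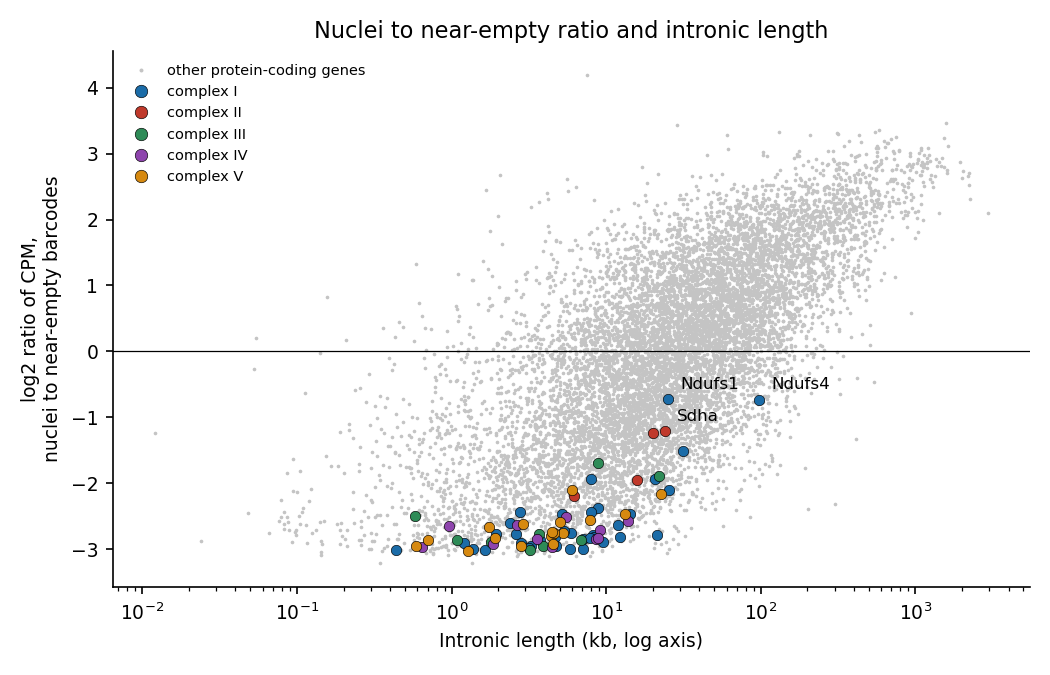
The log2 ratio of CPM in nuclei to CPM in near-empty barcodes (vertical axis) is plotted against intronic length in kb (log axis) for 77 members, coloured by complex, and for other protein-coding genes in grey. The quartiles of the members lie at -2.89 and -2.47, near the lower edge of the cloud, and Ndufs1 and Ndufs4 lie highest at -0.73; Cox7b2 is not drawn because it had under 100 UMIs in near-empty barcodes.

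Other genes of the pathway had low and high ratios. The 13 mitochondrially encoded subunits had a median log2 ratio of -2.72, but the limit of 3% mitochondrial UMIs had chosen the nuclei by these same genes, so this value is a description and supports nothing. The mitochondrial share was 1.98% in kept nuclei, 6.19% in all called nuclei and 12.2% in near-empty barcodes as means over the libraries. The counts of the other lists stand beside the 44.0% of all genes that were lower and the 45.3% that were higher. Of the 7 tested subunits and carriers that the symbol rule leaves out, 4 were lower, among them Cycs, the cytochrome c gene, at -3.00, and Ndufab1, the acyl carrier protein of complex I, at -2.86, and 2 were higher, Etfdh at 1.02 and Dmac2l at 0.36. Of 45 assembly factors 30 were lower and 9 higher, with a median of -0.68. Of 13 regulators of mitochondrial gene expression 7 were higher in nuclei, a share near that of all genes, and 3 were lower, with a median of 0.40 against 0.04 for all genes. Nrf1, a transcription factor of respiratory genes, stood at 1.90 ± 0.07 and the coactivator gene Ppargc1b at 1.85 ± 0.08 (SE), whereas Tfam, which packages mitochondrial DNA, stood at -1.77 ± 0.10. Cytoplasmic ribosomal protein genes, another set of short and abundant mRNAs, were lower in 79 of 89 with a median of -3.03, and the 7 that were higher were all Rps6k kinase genes, which share the symbol pattern but encode no ribosomal protein.

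Within nuclei the level followed the mitochondrial share of the same nuclei. Called nuclei with at most 1% mitochondrial UMIs had a summed member level of 3574 ± 293 CPM (SD, n = 4 libraries), those with 2 to 3% had 5822 ± 591, those with 5 to 10% had 8961 ± 946 and those above 15% had 18518 ± 3819. The level rose from each step to the next in each of the 4 libraries. Among excitatory neuron-like nuclei, named again under a limit of 15%, it rose from 3652 ± 167 CPM at up to 1% to 5216 ± 547 at 2 to 3% and 7460 ± 784 at 10 to 15%.

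**Figure D2:**
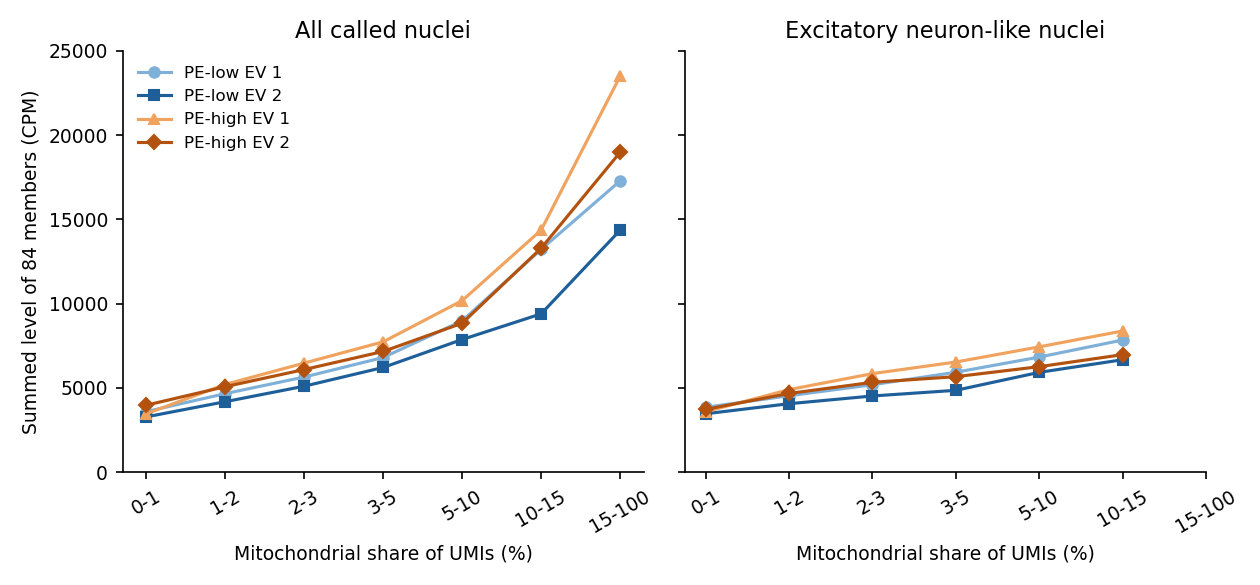
The summed level of the 84 members in CPM (vertical axis) is plotted against steps of the mitochondrial share of UMIs per nucleus, for all called nuclei (left) and excitatory neuron-like nuclei (right), with 1 line per library. Every line climbs, from 3276 to 3970 CPM in the lowest step on the left to 14347 to 23479 CPM in the highest.

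Across the cell classes the summed level was lowest in excitatory neuron-like nuclei, at 4838 and 4124 CPM in PE-low EV 1 and 2 and 5460 and 4800 CPM in PE-high EV 1 and 2, a mean of 4806 ± 546 (SD, n = 4 libraries). Means rose through striatal projection neuron-like (5621 ± 997), inhibitory neuron-like (5723 ± 576), microglia-like (6111 ± 762), oligodendrocyte-like (6634 ± 373), astrocyte-like (7419 ± 290) and oligodendrocyte precursor-like nuclei (8214 ± 2084). In that order each class overlapped its neighbour in range, apart from oligodendrocyte-like nuclei (6118 to 6992 CPM) and astrocyte-like nuclei (7168 to 7831 CPM), which were separate. The wide spread of oligodendrocyte precursor-like nuclei came with 11222 CPM in PE-high EV 1, a library that held 18 of these nuclei. Within a library the level of astrocyte-like nuclei was 1.56 ± 0.179 times that of excitatory neuron-like nuclei (SD, n = 4). That of oligodendrocyte-like nuclei was 1.40 ± 0.197 times, and both were higher in 4 of 4 libraries. That of microglia-like nuclei was 1.29 ± 0.251 times, higher in 3 of 4. These levels belong to the mitochondrial limit of 3%. At 15%, with classes named again, excitatory neuron-like nuclei were still lowest (5549 CPM). Astrocyte-like nuclei (10961 CPM) then lay under microglia-like (11974 CPM) and oligodendrocyte-like nuclei (12694 CPM), with overlapping ranges, but at 5% above both. At 3% 171 microglia-like, 449 oligodendrocyte-like and 3992 excitatory neuron-like nuclei were kept, against 1822, 4256 and 9401 at 15%.

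**Figure D3:**
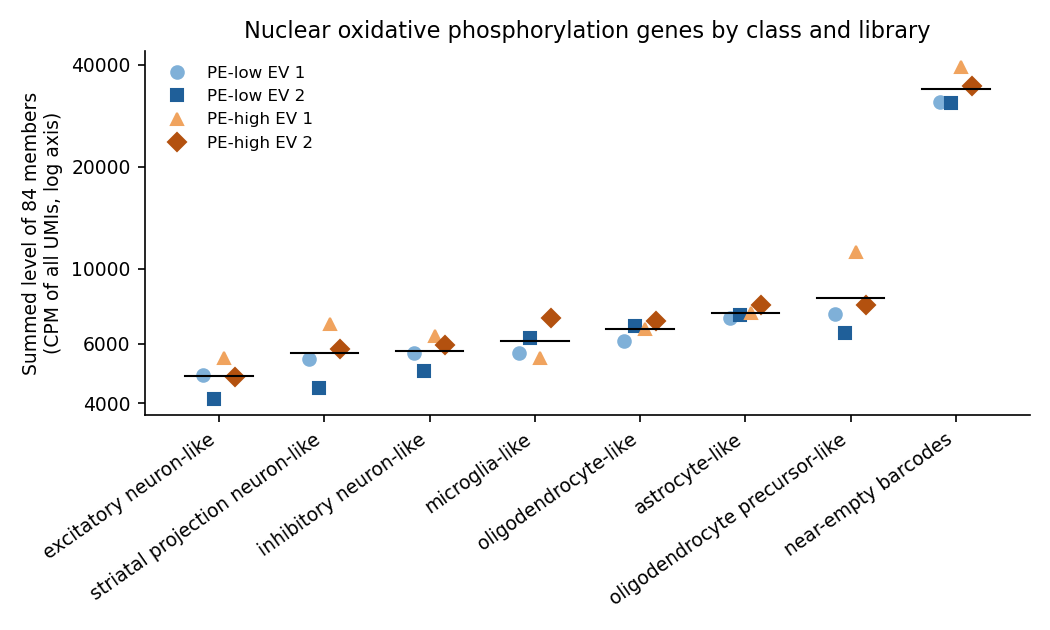
The summed level of the 84 members in CPM of all UMIs (log axis) is plotted for 7 classes of nuclei and for near-empty barcodes, with 1 symbol per library and a line at the mean of the 4 libraries. All class means lie between 4806 and 8214 CPM, far under the near-empty mean of 34020 CPM.

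Depth fell along most of the order at the 3% limit, and free RNA moved with that order for some markers but not for others. The median UMI count per nucleus was 2484 in excitatory neuron-like nuclei but 1232 in astrocyte-like, 1267 in oligodendrocyte-like and 1178 in oligodendrocyte precursor-like nuclei. With each nucleus thinned to 500 UMIs, so that all nuclei weigh the same, the means were 5200, 9009 and 7957 CPM in excitatory neuron-like, astrocyte-like and oligodendrocyte-like nuclei. As a percentage of the near-empty level, the members stood at 14.1% ± 0.940 in excitatory neuron-like nuclei, 22.0% ± 2.18 in astrocyte-like and 23.9% ± 3.26 in oligodendrocyte precursor-like nuclei (SD, n = 4 libraries). Measured in the same way, the summed level of the 6 oligodendrocyte markers, which the other classes should lack, was 11.3% ± 1.11, 22.0% ± 1.97 and 21.5% ± 2.66 of the near-empty level in these classes. Mitochondrially encoded subunits were at 15.6%, 18.1% and 18.2%. The excitatory marker Slc17a7 was at 14.4% of its near-empty level in inhibitory neuron-like nuclei and at 30.1% in oligodendrocyte-like nuclei. Other markers did not follow the order. Nrgn was at 18.2% in striatal projection neuron-like, 17.5% in astrocyte-like and 18.7% in oligodendrocyte precursor-like nuclei. Slc1a2 was at 33.2% in excitatory neuron-like and 23.2% in oligodendrocyte-like nuclei. Mbp was at 40.5% in microglia-like, 26.5% in astrocyte-like and 23.6% in oligodendrocyte precursor-like nuclei. The part of free RNA in the differences between classes was not tested.

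By gene, 76 of the 84 members passed the filter on low counts in a fit over all classes, and Cox4i2, Cox6a2, Cox6b2, Cox7a1, Cox7b2, Ndufa4l2, Ndufs8 and Sdhd did not. Against excitatory neuron-like nuclei, 47 of the 76 were higher in astrocyte-like nuclei and none lower (edgeR quasi-likelihood test with library as a block, adjusted p under 0.1 over 7518 genes), beside 22.3% of all genes higher. The counts were 28 higher in oligodendrocyte-like nuclei (17.8% of all genes), 16 in oligodendrocyte precursor-like nuclei (13.0%), 30 in striatal projection neuron-like nuclei (23.5%), 7 in inhibitory neuron-like nuclei (16.7%) and 2 in microglia-like nuclei (12.4%). In microglia-like nuclei 1 member was lower (13.9% of all genes). In the other classes edgeR called none lower (22.2%, 17.7%, 23.9% and 19.4% of all genes lower in oligodendrocyte-like, oligodendrocyte precursor-like, striatal projection neuron-like and inhibitory neuron-like nuclei, and 23.7% in astrocyte-like nuclei). In either direction 46.0%, 40.1%, 30.7%, 47.3%, 36.0% and 26.3% of all genes were called in astrocyte-like, oligodendrocyte-like, oligodendrocyte precursor-like, striatal projection neuron-like, inhibitory neuron-like and microglia-like nuclei. The median log2 fold change of the 76 was 0.53 in astrocyte-like, 0.39 in oligodendrocyte-like, 0.41 in oligodendrocyte precursor-like, 0.25 in striatal projection neuron-like, 0.14 in microglia-like and 0.12 in inhibitory neuron-like nuclei, while the median of all genes lay between -0.09 and 0.01. In astrocyte-like nuclei the calls covered 19 of 36 complex I members, 0 of 3 of complex II, 5 of 9 of complex III, 9 of 11 of complex IV and 14 of 17 of complex V. These counts depended on single libraries, and the shares of all genes called moved as well. Without PE-high EV 2 the counts were 31 in astrocyte-like, 17 in oligodendrocyte-like, 8 in oligodendrocyte precursor-like, 10 in striatal projection neuron-like and 3 in inhibitory neuron-like nuclei. Of all genes 38.2%, 32.4%, 22.7%, 37.0% and 26.9% were then called in either direction. Without PE-low EV 2 the count was 10 in oligodendrocyte-like nuclei (32.1% of all genes called). Without PE-low EV 1 it was 10 in oligodendrocyte precursor-like nuclei (25.2%), and without PE-high EV 1 it was 4 in inhibitory neuron-like nuclei (33.4%). In microglia-like nuclei there were 0 higher and 1 lower without PE-high EV 2, 1 higher and 2 lower without PE-high EV 1, 1 higher and 0 lower without PE-low EV 2 and 2 higher and 0 lower without PE-low EV 1. Of all genes 20.2%, 25.1%, 22.0% and 17.5% were called in these fits.

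**Figure D4:**
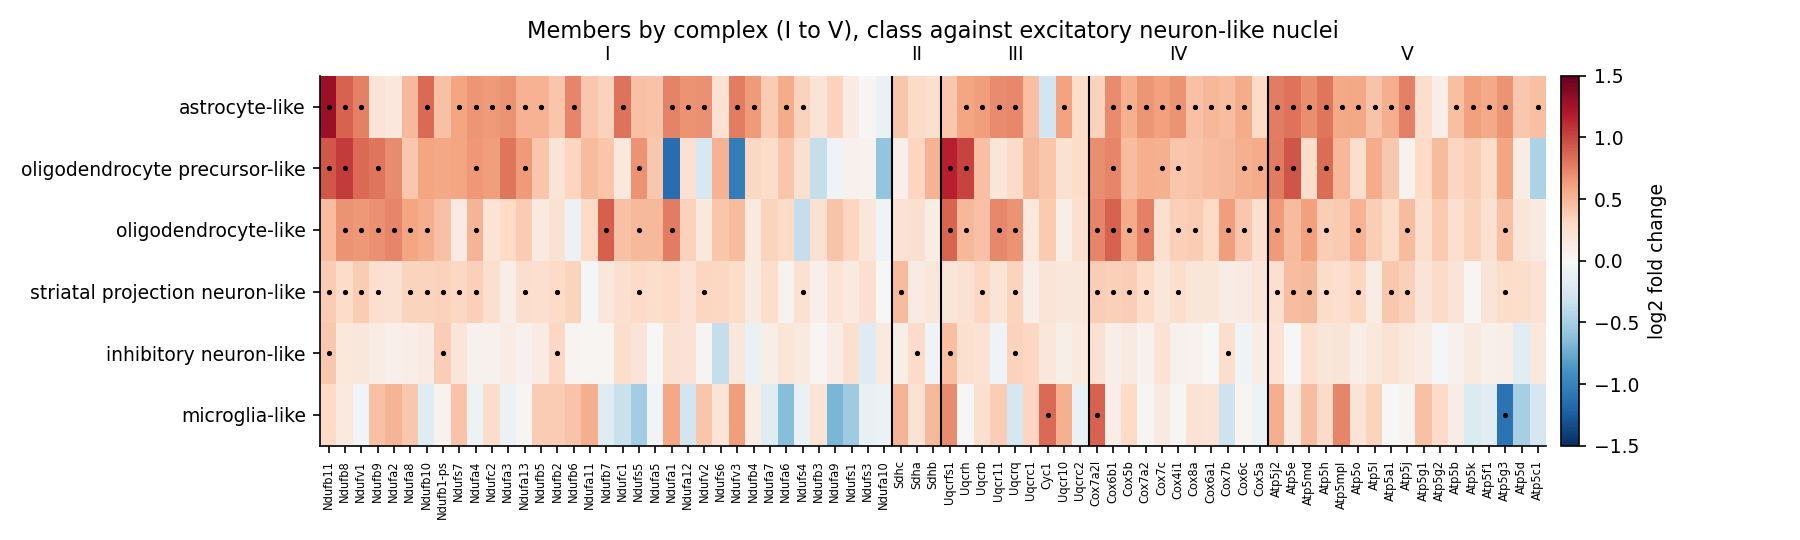
Colour gives the log2 fold change of each of 75 members (columns, grouped by complex I to V) in 6 classes (rows) against excitatory neuron-like nuclei, and a dot marks an adjusted p under 0.1. The astrocyte-like row carries 47 dots and the microglia-like row 3, and no complex II member is marked in astrocyte-like nuclei.

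The members called with the largest changes in each class came from complexes I to V. Ndufb11, an X-linked accessory subunit of complex I, was at 111, 84.4, 50.9 and 98.8 CPM in astrocyte-like nuclei of PE-low EV 1 and 2 and PE-high EV 1 and 2. In excitatory neuron-like nuclei it was at 41.9, 25.2, 36.2 and 35.8 CPM, without overlap and with a log2 fold change of 1.29 ± 0.25 (SE, adjusted p = 1.59e-05 by edgeR). Ndufb8, another accessory subunit of complex I, changed by 0.88 ± 0.20 in astrocyte-like nuclei and by 1.05 ± 0.28 in oligodendrocyte precursor-like nuclei. In oligodendrocyte-like nuclei Cox6b1 of complex IV was at 97.7, 157, 146 and 113 CPM against 64.5, 52.8, 94.7 and 67.2 CPM, a change of 0.89 ± 0.19 (adjusted p = 0.000113 by edgeR), and Ndufb7 changed by 0.90 ± 0.26. Uqcrfs1, the Rieske iron-sulfur protein of complex III, changed by 1.16 ± 0.43 in oligodendrocyte precursor-like nuclei on 15 UMIs and by 0.45 ± 0.18 in inhibitory neuron-like nuclei, where Ndufb11 changed by 0.40 ± 0.16. In striatal projection neuron-like nuclei Atp5md, a small subunit of ATP synthase, changed by 0.48 ± 0.12 and Sdhc, a membrane anchor of complex II, by 0.47 ± 0.17.

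In microglia-like nuclei counts were small, and the neuronal markers Syt1 and Rbfox3 stood above their near-empty level. Syt1 was at 2374 CPM there, 1280 CPM in near-empty barcodes and 3903 CPM in excitatory neuron-like nuclei, and Rbfox3 at 319, 217 and 511 CPM, while Snap25 was lower than outside at 754 against 1266 CPM. Syt1 was also above its near-empty level in oligodendrocyte-like (1667 CPM) and astrocyte-like nuclei (1441 CPM). Rbfox3 (201 and 193 CPM) and Snap25 (579 and 512 CPM) were below theirs in these 2 classes. The part of this neuronal RNA in the comparisons of glial classes with neurons was not tested. Cox7a2l, which joins complexes III and IV in supercomplexes, was at 98.9, 33.6, 150 and 103 CPM against 44.5, 38.4, 40.4 and 37.6 CPM, a change of 0.88 ± 0.31 (SE, adjusted p = 0.0310 by edgeR) on 30 UMIs, and PE-low EV 2 overlapped the excitatory neuron-like values. Cyc1, cytochrome c1 of complex III, changed by 0.85 ± 0.36 on 21 UMIs. Atp5g3, a gene for subunit c of ATP synthase, was the member that fell, by 1.11 on the log2 scale (SE 0.39, adjusted p = 0.0299 by edgeR), but on 11 UMIs. Its CPM were 21.2 and 11.2 in PE-low EV 1 and 2 against 69.9 and 55.2, and 85.5 and 51.7 in PE-high EV 1 and 2 against 59.9 and 50.5, so it was lower in the PE-low EV libraries but not in the PE-high EV libraries.

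Paralogs differed in how much could be counted. Cox6a1, Cox7a2 and Cox8a were detected in all 7 classes, at 80.6 to 134, 84.2 to 176 and 223 to 326 CPM as means over libraries. Few UMIs came from the muscle forms Cox6a2 and Cox7a1, with 71 and 15 in kept nuclei, from Cox6b2, the testis form of subunit 6b, with 19, and from Cox4i2 and Ndufa4l2, with 15 and 10. Cox6a2 was lower in nuclei, with 2.17, 2.70, 4.96 and 2.64 CPM in nuclei against 19.9, 23.4, 25.9 and 20.4 CPM outside. Cox4i2, the hypoxia-linked form of subunit 4, and Ndufa4l2 are known from pericytes, a class that was not named here. With a mitochondrial limit of 15%, where 494 endothelial-like nuclei could be named, Cox4i2 had 7 UMIs and 11.8 CPM in them (pooled over libraries, exact Poisson 95% interval 4.74 to 24.3 for counting error only). This stood against 0.490 CPM (interval 0.244 to 0.876) in excitatory neuron-like nuclei. Astrocyte-like nuclei had 16 UMIs at 4.90 CPM (interval 2.80 to 7.96) and unnamed nuclei 33 at 5.08 CPM (interval 3.50 to 7.14), and both intervals overlap that of endothelial-like nuclei. Ndufa4l2 had 6 UMIs and 10.1 CPM in endothelial-like nuclei (interval 3.71 to 22.0), against 0.356 CPM in excitatory neuron-like nuclei, but most of its UMIs, 59 at 9.09 CPM (interval 6.92 to 11.7), were in unnamed nuclei. The 3 genes for subunit c of ATP synthase, whose mature proteins are the same, were at 77.9, 38.0 and 58.9 CPM in excitatory neuron-like nuclei for Atp5g1, Atp5g2 and Atp5g3, and at 101, 45.8 and 103 CPM in astrocyte-like nuclei.

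The 3 neuronal classes held 148 of the 166 UMIs of Cox7b2, or 89.2%, and 82.1% of all UMIs of the kept nuclei. Its mean level was 6.77 CPM in excitatory neuron-like, 8.45 in inhibitory neuron-like and 8.99 in striatal projection neuron-like nuclei, from 70, 35 and 43 UMIs. In oligodendrocyte-like nuclei it was at 0 UMIs, where a limit of 3 counts over the class allows up to 4.08 CPM for counting error only. In astrocyte-like and microglia-like nuclei it rested on 4 UMIs each (11.9 CPM pooled in microglia-like nuclei, interval 3.25 to 30.5), so that no order against the neurons can be read for microglia-like nuclei. At the limit of 15% oligodendrocyte-like nuclei had 4 UMIs and 1.09 CPM (interval 0.298 to 2.80), against 8.28 CPM (interval 6.71 to 10.1) in striatal projection neuron-like nuclei. In the summed members oligodendrocyte-like nuclei stood above the neurons instead.

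The comparison of PE-high EV with PE-low EV asked whether the PE content of the EVs was followed by other levels of these genes. In striatal projection neuron-like nuclei the summed level was 5395 and 4443 CPM in PE-low EV 1 and 2 and 6851 and 5796 CPM in PE-high EV 1 and 2, and in inhibitory neuron-like nuclei 5629 and 4971 against 6328 and 5963 CPM, without overlap. In excitatory neuron-like nuclei 4838 and 4124 CPM stood against 5460 and 4800 CPM and overlapped, as did microglia-like and oligodendrocyte-like nuclei, while astrocyte-like (7168 and 7283 against 7394 and 7831 CPM) and oligodendrocyte precursor-like nuclei (7343 and 6459 against 11222 and 7832 CPM) did not. The ratio of the group means was 1.38 in oligodendrocyte precursor-like, 1.29 in striatal projection neuron-like, 1.16 in inhibitory neuron-like and 1.14 in excitatory neuron-like nuclei. It was 1.06 in microglia-like and oligodendrocyte-like and 1.05 in astrocyte-like nuclei. No member was called in any of the 7 classes (edgeR quasi-likelihood test, adjusted p under 0.1), and DESeq2 called none either. Of all tested genes edgeR called 0.00783% in excitatory neuron-like nuclei (all lower), 0.0750% in oligodendrocyte precursor-like nuclei and 0% in the other 5 classes. At an unadjusted p under 0.05 edgeR gave 17 of 79 members in excitatory neuron-like, 25 of 79 in striatal projection neuron-like and 12 of 78 in inhibitory neuron-like nuclei, against 4.39%, 4.27% and 3.52% of all genes. It gave 3 of 58 in astrocyte-like, 2 of 47 in oligodendrocyte-like, 2 of 17 in oligodendrocyte precursor-like and 0 of 12 in microglia-like nuclei, against 7.11%, 4.79%, 2.62% and 4.07%. The median member log2 fold change was 0.32 in striatal projection neuron-like, 0.26 in oligodendrocyte precursor-like, 0.24 in inhibitory neuron-like, 0.21 in excitatory neuron-like, 0.13 in microglia-like and astrocyte-like and 0.06 in oligodendrocyte-like nuclei. That of all genes lay between -0.01 and 0.01 in the 7 classes. Both PE-high EV libraries lay above both PE-low EV libraries in 45 of 79 members in striatal projection neuron-like nuclei, where 18.4% of all genes did, in 34 of 79 in excitatory neuron-like (13.5%) and in 32 of 78 in inhibitory neuron-like nuclei (14.8%). In the glial classes the counts were near the share of all genes or above it on few members, with 11 of 58 in astrocyte-like (17.5%), 10 of 47 in oligodendrocyte-like (16.0%), 5 of 17 in oligodendrocyte precursor-like (16.3%) and 2 of 12 in microglia-like nuclei (17.5%). These counts share the same 4 libraries and are not independent of each other. Depth also separated the neuronal groups. In striatal projection neuron-like nuclei the median UMI count was 2177 and 2990 in PE-low EV and 1618 and 1517 in PE-high EV libraries. It was 2641 and 3519 against 2116 and 1992 in excitatory neuron-like and 2303 and 2860 against 1874 and 1627 in inhibitory neuron-like nuclei. Oligodendrocyte precursor-like nuclei were separate, and other glia overlapped. The UMI cut for calling nuclei was also higher in PE-low EV 1 and 2 (573 and 838) than in PE-high EV 1 and 2 (406 and 422). With 2 libraries per group neither depth nor this cut can be told apart from the treatment.

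**Figure D5:**
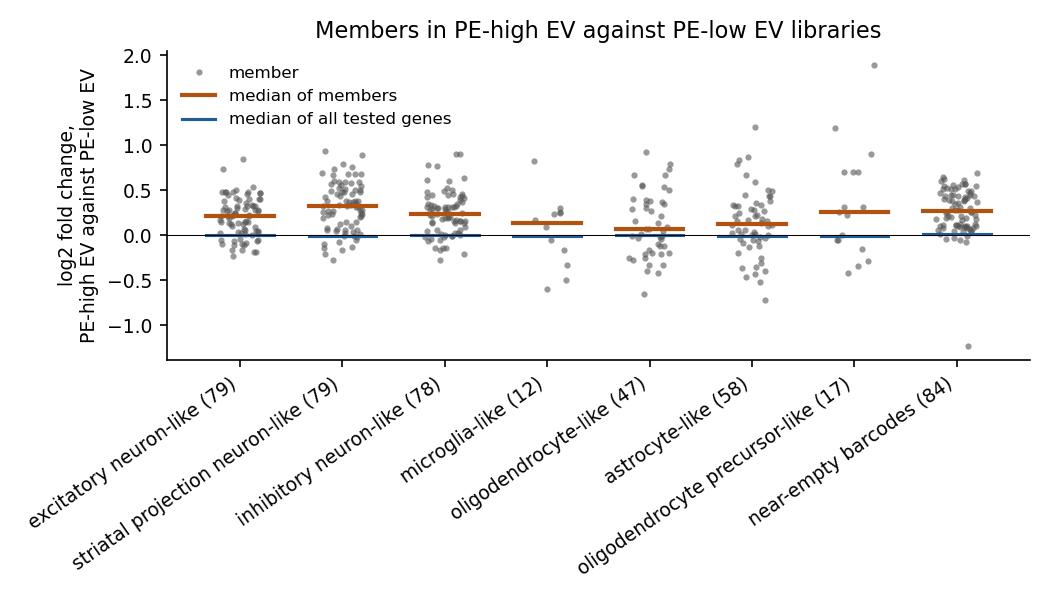
The log2 fold change of PE-high EV against PE-low EV (vertical axis) is plotted for each tested member as a point in 7 classes and near-empty barcodes, with the number tested in brackets, the median of the members in orange and that of all tested genes in blue. Member medians lie between 0.06 and 0.32 and those of all genes between -0.01 and 0.01, and no point passed an adjusted p of 0.1.

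In excitatory neuron-like nuclei the smallest p among members that were higher belonged to Uqcr11, at 37.7 and 33.9 CPM in PE-low EV and 82.2 and 48.4 CPM in PE-high EV libraries (log2 fold change 0.84 ± 0.21 SE, adjusted p = 0.777 by edgeR), and to Cox6c, a complex IV subunit, at 132 and 126 against 203 and 154 CPM (0.48 ± 0.14, adjusted p = 0.886). On the lower side stood Ndufs4, at 124 and 119 against 93.4 and 107 CPM (-0.23 ± 0.13, adjusted p = 1.00), and Atp5g3, at 69.9 and 55.2 against 59.9 and 50.5 CPM, whose groups overlapped. With the replicate number as a block Uqcr11 (adjusted p = 0.00112 by edgeR) and Atp5mpl (0.0673) passed in this class. In striatal projection neuron-like nuclei Ndufa4, Cox7a2, Uqcr11, Cox6c and Atp5md did, all higher. Of all genes 0.297% and 0.378% were called with the block in these classes. Leaving out PE-low EV 1 gave 10 called members in excitatory neuron-like and 9 in striatal projection neuron-like nuclei, where 1.79% and 2.23% of all genes were then called. Leaving out PE-low EV 2 gave 3 and 2 (1.64% and 0.222% of all genes), leaving out PE-high EV 2 gave 4 and 4 (0.321% and 0.312%), and leaving out PE-high EV 1 gave 0 and 0 (0.0676% and 0%). In inhibitory neuron-like nuclei leaving out PE-low EV 1 or PE-high EV 2 gave 1 (0.407% and 0.230%). Within steps of the mitochondrial share of excitatory neuron-like nuclei, both PE-high EV libraries lay above both PE-low EV libraries at 1 to 2% (4530 and 4057 against 4894 and 4664 CPM) and at 2 to 3% (5182 and 4515 against 5842 and 5326 CPM). The groups overlapped at up to 1% (3843 and 3460 against 3582 and 3722 CPM) and in the 3 steps from 3 to 15%. The difference between steps was not tested.

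Near-empty barcodes differed in the same direction. Their summed level of 31181 and 30836 CPM in PE-low EV libraries lay under the 39348 and 34715 CPM of PE-high EV libraries, a ratio of the means of 1.19. Barcodes of 10 to 100 UMIs gave 21280 and 22008 against 30760 and 29940 CPM. The mitochondrial share of the same barcodes was 12.4% and 10.7% against 14.2% and 11.5%, and those groups overlapped. No member was called by edgeR among the 84 tested, nor was any other gene (0%), whereas 37 of the 84 had an unadjusted p under 0.05 (4.64% of all genes). DESeq2 called 13 members, all higher, of 30 genes in all, or 0.212% of those tested, among them Cox8a and Ndufa4 at an adjusted p of 0.0983. Without the filter on low counts 10 members were called (0.533% of all genes), and with the replicate number as a block 3, Uqcr11, Atp5mpl and Ndufa1 (0.572%). The median log2 fold change was 0.27, against 0.01 for all genes, and 45 of 84 members had both PE-high EV values above both PE-low EV values, where 9.61% of all genes did.

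Ndufb2 of complex I had the smallest p among members that were higher, at 197 and 219 CPM in PE-low EV and 313 and 264 CPM in PE-high EV near-empty barcodes (log2 fold change 0.55 ± 0.15 SE, adjusted p = 0.758 by edgeR), followed by Uqcr11 at 321 and 391 against 655 and 427 CPM (0.69 ± 0.20). On the lower side stood Ndufa4l2, at 5.81 and 2.17 against 1.45 and 1.92 CPM on 80 UMIs in all (-1.23 ± 0.49). The result leaned on PE-high EV 1. Without it 0 of 84 members had an unadjusted p under 0.05 by edgeR and the median was 0.19. Without PE-low EV 2, where 0.707% of all genes were called, there were 10 called members, 9 higher and Ndufa4l2 lower, and without PE-low EV 1 or PE-high EV 2 there were 0. PE-high EV 1 had the highest mitochondrial share of near-empty UMIs and lost the most nuclei to the mitochondrial limit, and with 2 libraries per group neither can be told apart from the treatment. The other lists gave these values. The median log2 fold change of the cytoplasmic ribosomal protein genes in near-empty barcodes was 0.29, that of the mitochondrially encoded subunits 0.24, of the assembly factors 0.09 and of the regulators -0.01, with 0 called by edgeR in each of the 4 lists.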

How the data were processed

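The 4 libraries of single nuclei were made by droplet capture of 3' ends (10x Genomics). The authors counted UMIs with Cell Ranger 7.1.0 on mm10 and deposited unfiltered count matrices, with gene and barcode lists (unit other). Whether intronic reads were counted is not given in the sources used here. Nuclei were called by a cut on total UMIs. It was 573 and 838 in PE-low EV 1 and 2 and 406 and 422 in PE-high EV 1 and 2. Barcodes under the cut with at least 500 UMIs were tested for distance from the ambient profile. This added 362 and 949 nuclei in PE-low EV 1 and 2. It added 0 in both PE-high EV libraries, where the cut lay under 500 UMIs. Nuclei were kept at 200 to 2500 genes and at most 3% mitochondrial UMIs. They were clustered with Leiden (scanpy 1.11.5) on 2000 variable genes that left out the members and the mitochondrial genes. Clusters were named from fixed markers, by thresholds written after clusters had been seen. The members and lists were chosen with earlier results of these data known. Doublets were not removed and free RNA was not subtracted.

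UMIs were summed per library and class, since nuclei are not replicates, and tested with edgeR 4.0.16 (quasi-likelihood, TMM, filterByExpr, Benjamini-Hochberg, adjusted p under 0.1); DESeq2 1.42.0 was the alternative. The fits for PE content were tested on counts simulated at an assumed spread. Of 2-fold changes 64% were recovered in excitatory neuron-like nuclei and 77% in near-empty barcodes, and of 4-fold changes 98% and 100%. Among the calls 4.14% and 11.9% were false. Smaller changes, such as the member medians for PE content, were not simulated. Alternatives were DESeq2, no filter, no normalization, a replicate block, each library left out, mitochondrial limits of 5% and 15%, no upper gene limit, thinning to 500 UMIs, near-empty barcodes of 10 to 100 UMIs and an adjusted p of 0.05. Named were the member with most UMIs in each complex, listed paralogs, the 5 highest and 5 lowest ratios of nuclei to near-empty barcodes from 100 UMIs, members called for PE content or the 2 smallest p per direction, and the 2 largest called changes per class and direction. The values of 1 member are not reported here by name, and it was kept in the counts and sums. Genes were matched by identifier to GENCODE M21 (GRCm38), 84 of 84 members. Intervals cover counting error only. Libraries of a group are separate pools of mice, and p-values for PE content measure the spread between them. In the tests with library as a block, p-values measure the spread of the differences within libraries. Depth was 29472021 to 43272337 UMIs per library.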

Additional observations from a re-analysis of the deposited data

Results flagged for a closer look

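In 2 named members the PE-high EV and PE-low EV libraries were separate in opposite directions in different compartments, and these differences were not tested. Both members were named for a small p in excitatory neuron-like nuclei or near-empty barcodes, and all compartments were then searched. Both PE-high EV libraries lay above both PE-low EV libraries in many other genes, at the shares given above. The share of all genes with opposite separations was not counted. Ndufb2 had log2 fold changes of -0.35 in astrocyte-like nuclei, 0.48 in striatal projection neuron-like nuclei and 0.55 in near-empty barcodes. Ndufs4 had 0.27 in astrocyte-like nuclei, -0.23 in excitatory neuron-like nuclei and -0.28 in inhibitory neuron-like nuclei. Neither passed an adjusted p of 0.1 by edgeR in any of these.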

How the results depend on the processing

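Groups of 2 libraries, with 18 to 88 oligodendrocyte precursor-like and 19 to 59 microglia-like nuclei per library, limit the glial comparisons. The 83 lower members and the 1 higher member in nuclei were called without each library in turn, with the median at -2.92 to -2.85. That median was -2.76 without normalization, -1.62 against barcodes of 10 to 100 UMIs, -2.51 with a mitochondrial limit of 15% and -2.35 with none. Against barcodes of 10 to 100 UMIs 80 members were tested, of which 71 were lower and 0 higher by edgeR. These barcodes held 36508 to 50300 UMIs per library, against 5205173 to 8083296 in the main near-empty set. A gene at the 2.32 to 3.27 CPM of Cox7b2 in near-empty barcodes could hardly be counted there. The lack of a call for Cox7b2 in that fit therefore decides nothing. Of all genes 41.2% were called in either direction in that fit. For PE content, members called without each library ranged from 0 to 10 in excitatory neuron-like nuclei and near-empty barcodes, 0 to 9 in striatal projection neuron-like and 0 to 1 in inhibitory neuron-like nuclei. Without the filter on low counts 1 was called in excitatory neuron-like nuclei (0.122% of all genes) and 10 in near-empty barcodes (0.533%), and DESeq2 called 13 in near-empty barcodes (0.212%).

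With the replicate number as a block 2 were called in excitatory neuron-like nuclei, 5 in striatal projection neuron-like nuclei and 3 in near-empty barcodes. With 2 libraries a group the numbers share only a number, and deviations of same-numbered libraries correlated at -0.02 to 0.16. Median fold changes for PE content without each library ranged from -0.021 to 0.076 in astrocyte-like, 0.11 to 0.31 in excitatory neuron-like, 0.10 to 0.33 in inhibitory neuron-like, -0.050 to 0.54 in microglia-like, 0.18 to 1.08 in oligodendrocyte precursor-like, -0.021 to 0.22 in oligodendrocyte-like and 0.20 to 0.44 in striatal projection neuron-like nuclei and 0.19 to 0.34 in near-empty barcodes. The median was -0.042 without the filter, 0.24 at a limit of 5% and 0.31 at 15% in astrocyte-like nuclei, -0.16, 0.23 and 0.42 in oligodendrocyte-like nuclei, and 0.47 in barcodes of 10 to 100 UMIs.

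Calls against excitatory neuron-like nuclei without each library ranged from 31 to 46 in astrocyte-like (38.2% to 43.4% of all genes), 3 to 9 in inhibitory neuron-like (26.9% to 38.7%) and 1 to 3 in microglia-like nuclei (17.5% to 25.1%). They ranged from 8 to 15 in oligodendrocyte precursor-like (22.7% to 27.6%), 10 to 26 in oligodendrocyte-like (32.1% to 37.7%) and 10 to 32 in striatal projection neuron-like nuclei (37.0% to 51.2%). At a limit of 15% they were 77 in astrocyte-like, 22 in inhibitory neuron-like, 72 in microglia-like, 79 in oligodendrocyte-like, 65 in oligodendrocyte precursor-like and 73 in striatal projection neuron-like nuclei of 80 tested, all higher apart from 2 lower in oligodendrocyte-like nuclei, while 62.7%, 42.2%, 60.7%, 69.7%, 43.0% and 51.6% of all genes were called. Without normalization they were 32 in inhibitory neuron-like (42.8% of all genes), 11 in microglia-like (25.5%), 31 in oligodendrocyte precursor-like (29.5%) and 19 in striatal projection neuron-like nuclei (46.9%). With DESeq2 they were 6 in microglia-like (24.4%) and 29 in oligodendrocyte precursor-like nuclei (30.1%). Summed levels at limits of 5% and 15% were 9329 and 10961 CPM in astrocyte-like, 8803 and 11974 in microglia-like and 8644 and 12694 in oligodendrocyte-like nuclei, and at 15% 5549 in excitatory neuron-like and 6724 in inhibitory neuron-like nuclei. Without an upper gene limit they were 4885 CPM in microglia-like and 6190 in oligodendrocyte-like nuclei, and after thinning 9009 in astrocyte-like, 7995 in microglia-like and 7957 in oligodendrocyte-like nuclei. Barcodes of 10 to 100 UMIs stood at 25997 CPM. The causes were not tested.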
